A study of Homo sapiens with 12 samples.

Results

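Mitochondria are moved along microtubules, fused and divided by a small set of proteins. The Miro GTPases of the outer membrane (RHOT1 and RHOT2) hold the adaptors TRAK1 and TRAK2, which connect the organelle to kinesin and dynein motors. Mitofusins (MFN1 and MFN2) join outer membranes, OPA1 joins inner membranes and shapes cristae, and the dynamin-related GTPase DNM1L divides the organelle. These 8 genes are described here across all 12 ribosome profiling libraries of the study, out of 19305 RefSeq transcripts counted. They were taken by name, and the set was chosen by the RHOT1 counts in HEK293T cells, which had been seen to be higher with the eIF2A than with the control siRNA label. All 8 were found, 1 transcript row each, and all 8 passed the filter on low counts in every fit.

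Ribosome profiling sequences the short mRNA pieces that ribosomes cover, so a gene's count follows both its mRNA level and its translation, and mRNA libraries were not used here. In HEK293T, a human embryonic kidney line, 8 libraries came from cells given sodium arsenite, an oxidative stressor. They carry an siRNA label (eIF2A or control) and an immunoprecipitation label (CBP80, a subunit of the nuclear cap-binding complex, or eIF4E, the cytoplasmic cap-binding factor), with sets 1 and 2 of each of the 4 groups. In H9, a human embryonic stem cell line, 4 libraries carry an eIF2A or a control shRNA label, again in sets 1 and 2, with neither arsenite nor an immunoprecipitation in their labels. eIF2A is an alternative initiation factor that can bring the initiator tRNA to the ribosome. Nothing in the labels says that the sets came from separate cultures, so the spread behind each p-value is that between libraries and may be technical.

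Coding reads numbered 937990 to 1878700 in H9 libraries and 4331459 to 5775177 in HEK293T libraries, so 3 reads were worth 1.60 to 3.20 counts per 1000000 coding reads (CPM) in H9 and 0.519 to 0.693 CPM in HEK293T. H9 libraries had reads on 8 of 9 pluripotency markers, summing to 4886 to 5178 CPM, against 57.5 to 70.9 CPM in HEK293T. POU5F1 was at 0 in all 12 libraries. Fibroblast markers summed to 669 to 851 CPM in H9, with THY1 at 370 to 398, COL1A2 at 143 to 256 and COL1A1 at 111 to 178 CPM. PDGFRB had 11.4 to 25.1 CPM and COL3A1 0 to 1.60 CPM, while DCN and LUM were at 0. Neural ectoderm markers summed to 524 to 1151 CPM in H9. NES had 481 and 445 CPM in set 1 and 1065 and 1066 CPM in set 2, labelled control and eIF2A shRNA. OTX2 had 74.2 to 85.4 CPM, SOX1 at most 3.73 CPM and ZIC1 at most 0.634 CPM, with PAX6 at 0. Endoderm markers summed to 3.20 to 10.6 CPM and mesoderm markers to 0 to 1.32 CPM in H9. In HEK293T the same lists summed to 17.9 to 22.6 CPM for fibroblasts, 60.6 to 69.1 CPM for neural ectoderm, 31.6 to 50.5 CPM for endoderm with SOX17 at 0, and 9.32 to 18.2 CPM for mesoderm. In bulk libraries, fewer cells of a type and less RNA per cell cannot be told apart.

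The siRNA labels were not borne out in every library. EIF2A, the targeted gene, had 93.8 and 98.4 CPM in the set 1 libraries labelled eIF2A siRNA with the CBP80 and eIF4E label, against 82.7 and 83.8 CPM in those labelled control siRNA. In set 2 it had 45.3 and 48.0 CPM in the libraries labelled eIF2A siRNA, against 81.3 and 86.1 CPM in those labelled control. In H9, EIF2A had 110.2 and 68.2 CPM in sets 1 and 2 labelled eIF2A shRNA, against 103 and 60.9 CPM in those labelled control shRNA. EIF2A was thus lower with its own label in set 2 of HEK293T alone. For RHOT1 and the other chosen genes, CPM values and HEK293T siRNA ratios are therefore given by set below. The fitted differences, adjusted p-values and counts of genes called pool sets 1 and 2. They do not keep apart the set in which EIF2A was not lower. Most other genes named below are given as ranges over sets 1 and 2 together. Beyond the EIF2A counts, libraries that differed only in the immunoprecipitation label agreed within or close to sampling noise. Chi-square over degrees of freedom was 1.01 to 1.03 there, against 3.95 to 5.52 between the sets of 1 HEK293T group. H9 libraries that differed in shRNA label but shared a set had 1.04 and 1.07. The names under which the H9 libraries were deposited seem to pair them differently from the labels, and can be read as another shRNA assignment. Groups follow the labels, so the direction of each H9 shRNA difference, and which H9 libraries count as controls, rest on the labels alone. The CBP80- and eIF4E-labelled libraries, which agreed so closely, were also summed, which leaves 2 libraries against 2 in HEK293T. The fit of the 8 HEK293T libraries counts them as separate, with 4 residual degrees of freedom. Its p-values for the siRNA label may therefore be too small.

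RHOT1, which encodes Miro1, a calcium-binding GTPase that anchors mitochondria to the transport machinery, was higher in every HEK293T library labelled eIF2A siRNA than in every library labelled control siRNA. In sets 1 and 2 it had 35.9 and 31.0 CPM with the CBP80 label and 42.5 and 37.2 CPM with the eIF4E label in libraries labelled eIF2A siRNA. In those labelled control siRNA it had 19.2 and 19.3 CPM with the CBP80 label and 19.9 and 13.2 CPM with the eIF4E label. The groups did not overlap, and the eIF4E control library of set 2 was the lowest of the 8. These values rest on 166 to 215 reads a library with the eIF2A label and 57 to 113 with the control label.

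With the immunoprecipitation labels summed, the RHOT1 ratio of eIF2A over control label was 2.01 in set 1 (95% interval of the counts 1.70 to 2.38) and 2.07 in set 2 (1.71 to 2.51). The intervals are exact conditional binomial ones and cover counting error only. By immunoprecipitation label, the ratio was 1.87 (1.47 to 2.40) in set 1 and 1.60 (1.24 to 2.07) in set 2 with the CBP80 label. With the eIF4E label it was 2.14 (1.69 to 2.72) in set 1 and 2.83 (2.10 to 3.86) in set 2. EIF2A itself had summed ratios of 1.15 in set 1 and 0.559 in set 2. The fitted log2 difference of RHOT1 was 0.71 ± 0.17 (SE) with the CBP80 label and 1.16 ± 0.18 with the eIF4E label, ranks 430 and 113 from the top of 11778 genes. The summed libraries gave 0.93 ± 0.16. RHOT1 was seen in this contrast before it was chosen, so these values describe it and carry no test.

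**Figure D1:**
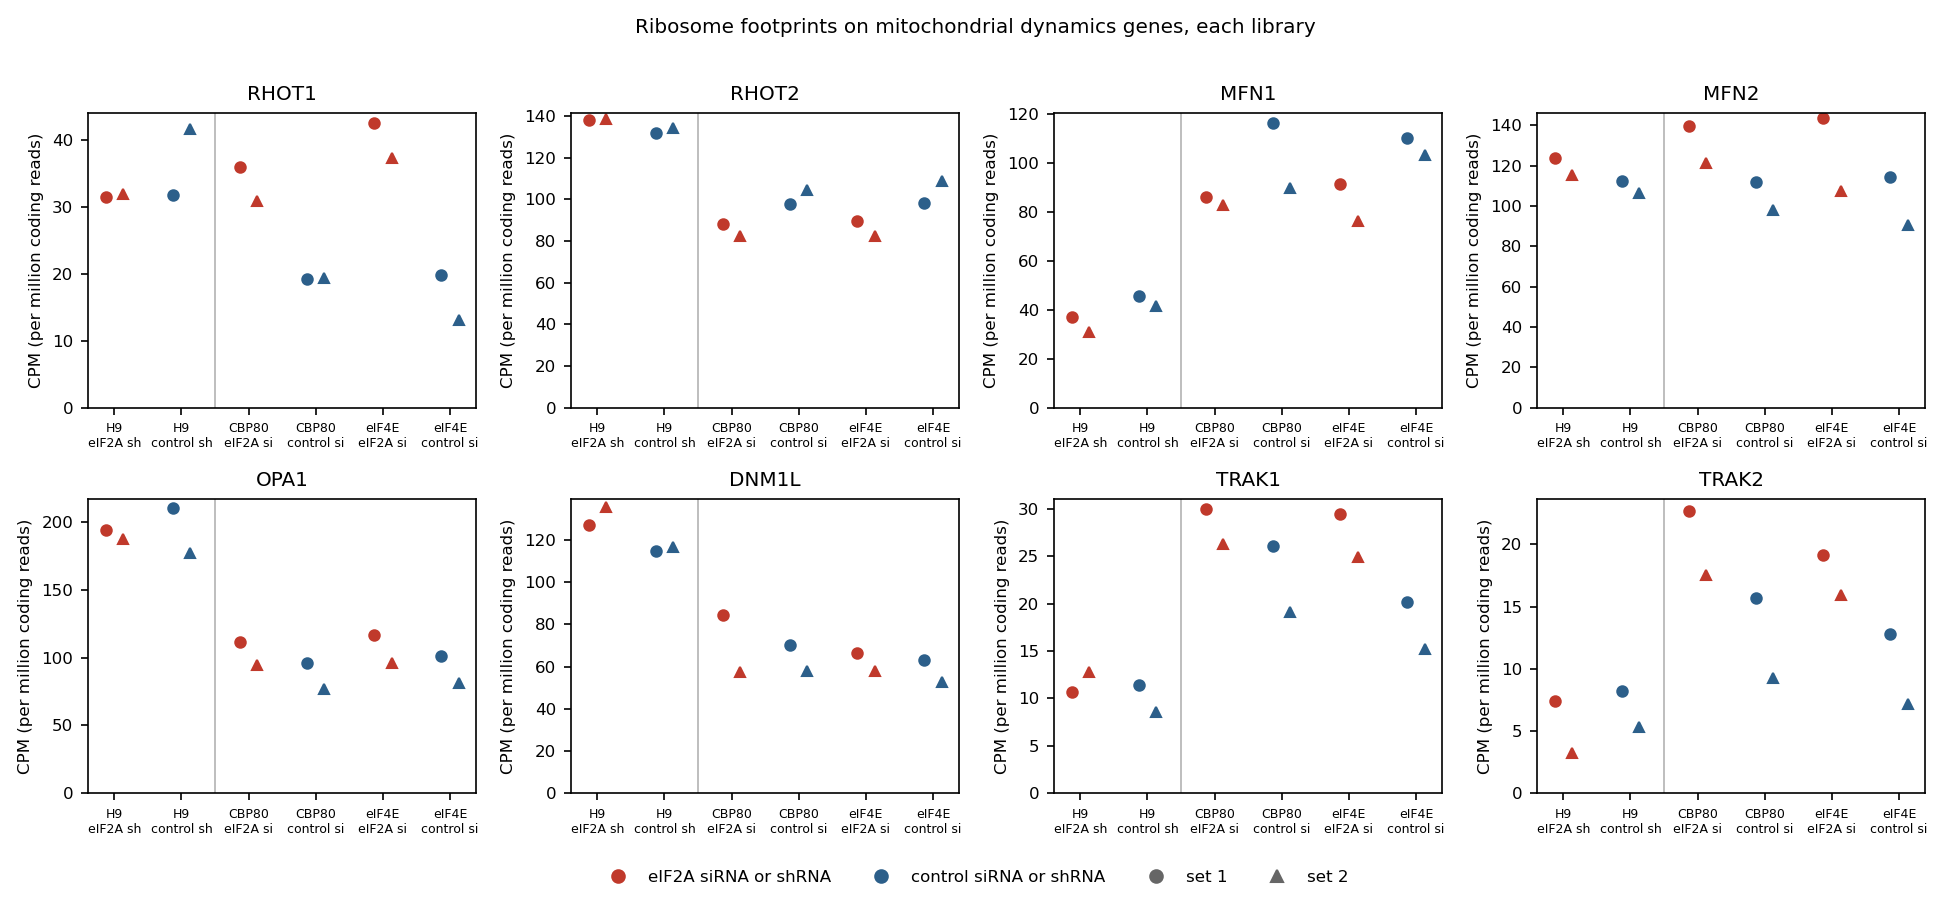
CPM (vertical axis, counts per 1000000 coding reads) of each of the 8 genes in each of the 12 libraries, with H9 left of the grey line and HEK293T right of it, red for the eIF2A label, blue for the control label, circles for set 1 and triangles for set 2. RHOT1 lies between 31.0 and 42.5 CPM in the 4 HEK293T libraries labelled eIF2A siRNA and between 13.2 and 19.9 CPM in the 4 labelled control siRNA.

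In H9 the order of the RHOT1 values was another one. RHOT1 had 31.4 and 32.0 CPM in sets 1 and 2 labelled eIF2A shRNA, against 31.7 and 41.7 CPM in those labelled control shRNA. The fitted log2 difference was -0.21 ± 0.25 (edgeR adjusted p = 0.999956), and the ratio over both sets was 0.864 with a 95% interval of 0.647 to 1.15. The ratio rests on 89 reads with the eIF2A label and 113 with the control label. Both H9 groups had RHOT1 levels close to those of the HEK293T libraries labelled eIF2A siRNA. In order of mean CPM, the groups were HEK293T eIF4E eIF2A siRNA (39.9 ± 3.76, SD, n = 2 in each group), H9 control shRNA (36.7 ± 7.06), HEK293T CBP80 eIF2A siRNA (33.4 ± 3.52), H9 eIF2A shRNA (31.7 ± 0.41), HEK293T CBP80 control siRNA (19.3 ± 0.12) and HEK293T eIF4E control siRNA (16.5 ± 4.73). Neighbours among the first 4, and the last 2, lay within their spread of each other. The step between H9 eIF2A shRNA and HEK293T CBP80 control siRNA was wider than the SD of both. An SD of 2 libraries measures the spread poorly and can fall below counting error. These values rest on 59 and 30 reads in H9 and 109 and 100 in HEK293T. Cell line, arsenite, immunoprecipitation and kind of RNA interference also differ across this step and cannot be told apart.

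RHOT2 encodes Miro2, the paralogue of Miro1 with the same domain plan. It had 88.0 and 82.6 CPM with the CBP80 label and 89.5 and 82.6 CPM with the eIF4E label in sets 1 and 2 labelled eIF2A siRNA, against 97.8 and 105 CPM and 98.2 and 109 CPM in those labelled control siRNA. Every library labelled eIF2A siRNA was below every library labelled control, the opposite of RHOT1, with ratios of 0.906 in set 1 (0.828 to 0.990) and 0.775 in set 2 (0.708 to 0.849). The fitted log2 differences were -0.33 ± 0.12 with the CBP80 label and -0.35 ± 0.12 with the eIF4E label. In H9, RHOT2 had 138 and 139 CPM with the eIF2A shRNA label, against 132 and 134 CPM with the control label, and a fitted difference of 0.05 ± 0.15 (edgeR adjusted p = 0.999956). Its H9 ratio over both sets was 1.04 (0.901 to 1.19).

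The RHOT1 share of the reads on the pair is built on the RHOT1 counts that chose the set, so it is a description alone. This share was apart between the HEK293T labels. It was 27.3 to 32.2% in the 4 libraries labelled eIF2A siRNA, against 10.8 to 16.8% in the 4 labelled control siRNA. In H9 it was 18.6 and 18.8% with the eIF2A shRNA label, against 19.4 and 23.7% with the control label, between the HEK293T groups. These shares count reads without regard to coding length, so they compare libraries and not the amounts of the proteins.

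**Figure D2:**
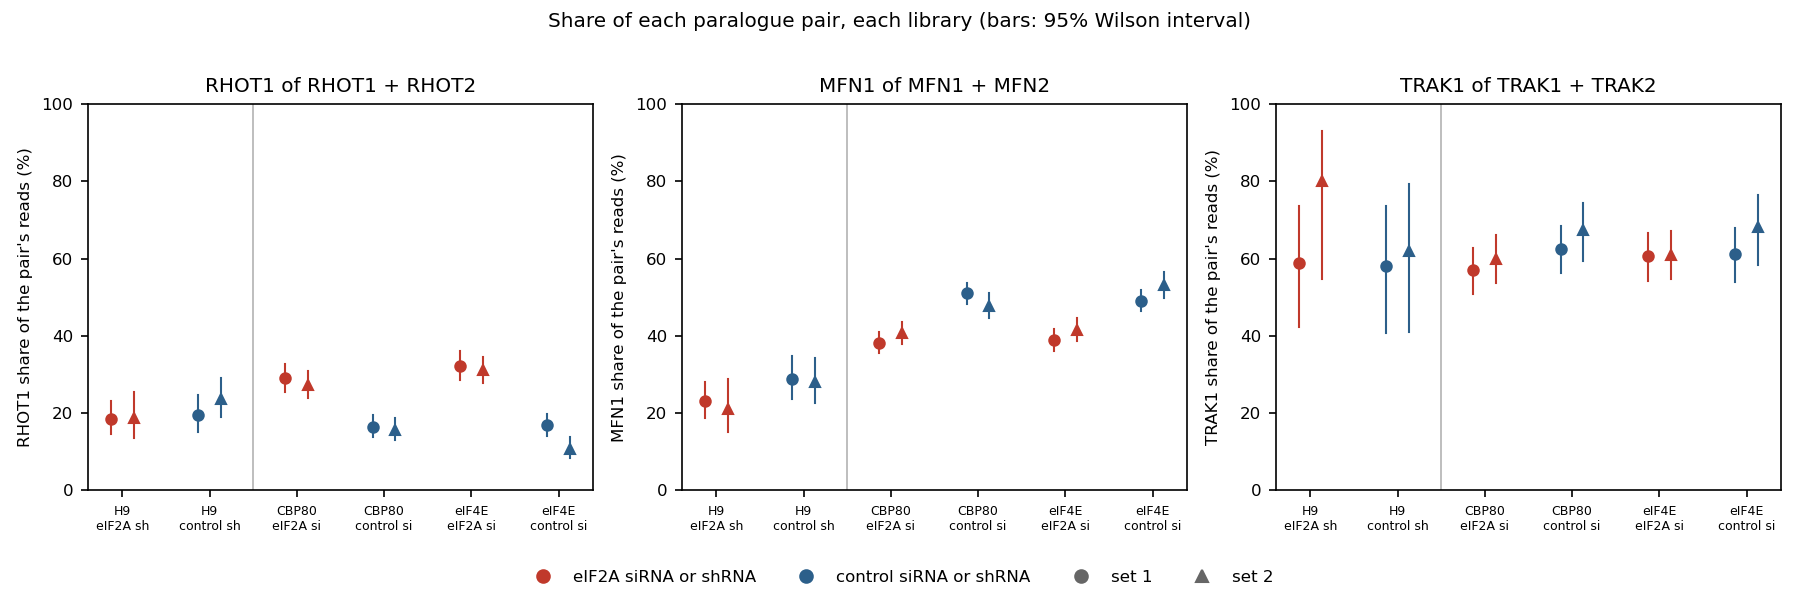
Share in percent of the reads of each paralogue pair that fell on its first member (vertical axis), in each library, with 95% Wilson intervals that cover counting error only, H9 left of the grey line and HEK293T right of it. The RHOT1 share is 27.3 to 32.2% in the HEK293T libraries labelled eIF2A siRNA, against 10.8 to 16.8% in those labelled control siRNA, and the MFN1 share is lowest in H9, at 21.2 to 28.9%.

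Both TRAK adaptors had higher CPM with the eIF2A siRNA label in each set, though at low counts. TRAK1, the adaptor that binds kinesin and dynein, had 30.0 and 26.3 CPM with the CBP80 label and 29.5 and 24.9 CPM with the eIF4E label in sets 1 and 2 labelled eIF2A siRNA, against 26.0 and 19.2 CPM and 20.2 and 15.2 CPM in those labelled control siRNA. The groups overlapped, since the CBP80 control library of set 1 was above the eIF4E eIF2A library of set 2. Summed over the immunoprecipitation labels, the TRAK1 ratio was 1.29 in set 1 (1.09 to 1.53) and 1.47 in set 2 (1.21 to 1.80), and the fitted log2 differences were 0.23 ± 0.18 with the CBP80 label and 0.52 ± 0.19 with the eIF4E label.

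TRAK2, the adaptor described mainly with dynein, had 22.7 and 17.5 CPM with the CBP80 label and 19.2 and 15.9 CPM with the eIF4E label in sets 1 and 2 labelled eIF2A siRNA, against 15.7 and 9.29 CPM and 12.8 and 7.16 CPM in those labelled control siRNA. Its groups did not overlap, by a narrow margin: the lowest library labelled eIF2A siRNA and the highest labelled control, 15.9 and 15.7 CPM, were nearly equal. The ratio was 1.47 in set 1 (1.19 to 1.82) and 2.01 in set 2 (1.54 to 2.65). Fitted log2 differences were 0.59 ± 0.25 with the CBP80 label and 0.69 ± 0.26 with the eIF4E label. In H9 both genes were near the limit of the depth. TRAK1 had 10.6 and 12.8 CPM with the eIF2A shRNA label, against 11.4 and 8.60 CPM with the control label, from 12 to 20 reads a library. TRAK2 had 7.45 and 3.20 CPM with the eIF2A shRNA label, against 8.24 and 5.29 CPM with the control label, from 3 to 14 reads. Their H9 ratios over both sets, 1.13 (0.669 to 1.92) for TRAK1 and 0.888 (0.440 to 1.77) for TRAK2, are too wide to set apart a value of 1 from the HEK293T ratios of set 1.

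The mitofusins lay on opposite sides as well. MFN1, the mitofusin with the stronger tethering activity, had 86.3 and 83.0 CPM with the CBP80 label and 91.4 and 76.4 CPM with the eIF4E label in sets 1 and 2 labelled eIF2A siRNA, against 116 and 90.0 CPM and 110.2 and 103 CPM in those labelled control siRNA. All but 1 of the control libraries were above all those labelled eIF2A siRNA, and the CBP80 control library of set 2 lay among them. On the TMM-scaled values used in the fits the groups did not overlap, at 76.7 to 86.1 CPM with the eIF2A siRNA label, against 94.0 to 118 CPM with the control label. The share of all genes without overlap on that scale was not counted, so nothing is read from this. The MFN1 ratio was 0.784 in set 1 (0.718 to 0.855) and 0.828 in set 2 (0.754 to 0.909). Fitted log2 differences were -0.37 ± 0.13 with the CBP80 label and -0.44 ± 0.13 with the eIF4E label.

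MFN2, which also joins mitochondria to the endoplasmic reticulum and is mutated in the axonal neuropathy Charcot-Marie-Tooth disease, had 139.6 and 121 CPM with the CBP80 label and 143 and 108 CPM with the eIF4E label in sets 1 and 2 labelled eIF2A siRNA, against 112 and 98.1 CPM and 115 and 90.7 CPM in those labelled control siRNA. Within each set the libraries labelled eIF2A siRNA were the higher ones, and across sets the groups overlapped. Its ratio was 1.25 in set 1 (1.16 to 1.35) and 1.20 in set 2 (1.11 to 1.31), with fitted log2 differences of 0.23 ± 0.14 and 0.20 ± 0.14 with the CBP80 and eIF4E label. The MFN1 share of the pair's reads was 38.2 to 41.5% with the eIF2A siRNA label, against 47.8 to 53.3% with the control label, without overlap.

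In H9, MFN1 had 37.3 and 30.9 CPM in sets 1 and 2 with the eIF2A shRNA label, against 45.7 and 41.7 CPM with the control label. The 2 libraries labelled eIF2A shRNA were the lower ones, as in HEK293T, and the fitted log2 difference of -0.34 ± 0.22 did not pass (edgeR adjusted p = 0.999956), with a ratio of 0.804 (0.614 to 1.05). MFN2 had 124 and 115 CPM with the eIF2A shRNA label, against 112 and 107 CPM with the control label. Its ratio of 1.11 had an interval of 0.949 to 1.29, which holds both 1 and the HEK293T values.

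OPA1 is mutated in dominant optic atrophy, and DNM1L is the GTPase that is brought to the outer membrane by receptors such as MFF and MIEF1. Both differed between the HEK293T sets, and their fitted siRNA differences were near or below their standard errors. OPA1 had 111 and 94.7 CPM with the CBP80 label and 116 and 96.3 CPM with the eIF4E label in sets 1 and 2 labelled eIF2A siRNA, against 95.7 and 76.8 CPM and 101 and 81.0 CPM in those labelled control siRNA. Set 1 was higher than set 2 in each of these 4 groups, and the OPA1 ratio was 1.15 in set 1 (1.06 to 1.25) and 1.21 in set 2 (1.10 to 1.33). DNM1L had 84.5 and 57.4 CPM with the CBP80 label and 66.4 and 58.0 CPM with the eIF4E label in sets 1 and 2 labelled eIF2A siRNA, against 70.0 and 57.7 CPM and 62.9 and 52.9 CPM in those labelled control siRNA. Its groups overlapped, with ratios of 1.14 in set 1 (1.03 to 1.26) and 1.04 in set 2 (0.926 to 1.17). The latter was the only one of the 16 summed HEK293T ratios whose interval held 1. These ratios use library sizes alone, which raised the median of all genes by 0.08 in log2 over TMM scaling with either immunoprecipitation label. Their intervals cover counting error only and were not computed on TMM-scaled values. The share of all genes whose interval leaves out 1 was not counted, so nothing is read from this count. The fitted log2 differences of OPA1 were 0.17 ± 0.14 and 0.13 ± 0.14, and those of DNM1L 0.06 ± 0.16 and 0.01 ± 0.16, with the CBP80 and eIF4E label.

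By edgeR's quasi-likelihood test at an adjusted p under 0.05, 1 of the 8 genes, RHOT1, was called in each siRNA contrast, where 4.02% of all 11778 genes were with the CBP80 label and 3.25% with the eIF4E label. Leaving out 1 library could end that call. With the CBP80 label 0 of 8 were called without the CBP80 libraries of control set 1, eIF2A set 1 or control set 2, where 323, 8 and 3 genes were called in all. With the eIF4E label 0 of 8 and 0 genes in all were called without the eIF4E library of control set 2. With the immunoprecipitation labels summed, 3 of 8 passed, RHOT1, TRAK2 and MFN1, among 1534 of 12331 genes. In CPM, 3 of 8 did not overlap between the 4 libraries labelled eIF2A siRNA and the 4 labelled control (RHOT1 and TRAK2 higher, RHOT2 lower), where 30.7% of all genes did not, 2304 higher and 1312 lower. The median fitted log2 difference of the 8 was 0.20 with the CBP80 label and 0.16 with the eIF4E label, beside 0.00 over all genes in both. The RHOT1 contrast was the one used to choose the set, so nothing is read from these counts. Reads placed uniquely but outside coding sequences also moved with the siRNA label, at 42.2 to 51.1% of uniquely placed reads with the eIF2A label, against 35.2 to 40.1% with the control label, and their part in the result was not tested. Summed endoderm markers were higher with the eIF2A siRNA label too, with reads on 3 to 4 of 5 and SOX17 at 0 in all 8 libraries. The sums were 36.5 to 50.5 CPM, against 31.6 to 34.1 CPM with the control label. In set 1 AFP had 11.6 and 7.79 CPM with the CBP80 and eIF4E label, against 3.52 and 2.46 CPM in control. In set 2 it had 1.12 and 0.346 CPM, against 0.967 and 0.231 CPM. GATA4 and GATA6 overlapped between siRNA labels, and 0 of the 3 endoderm markers tested passed with either immunoprecipitation label. Their part in the result was not tested.

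**Figure D3:**
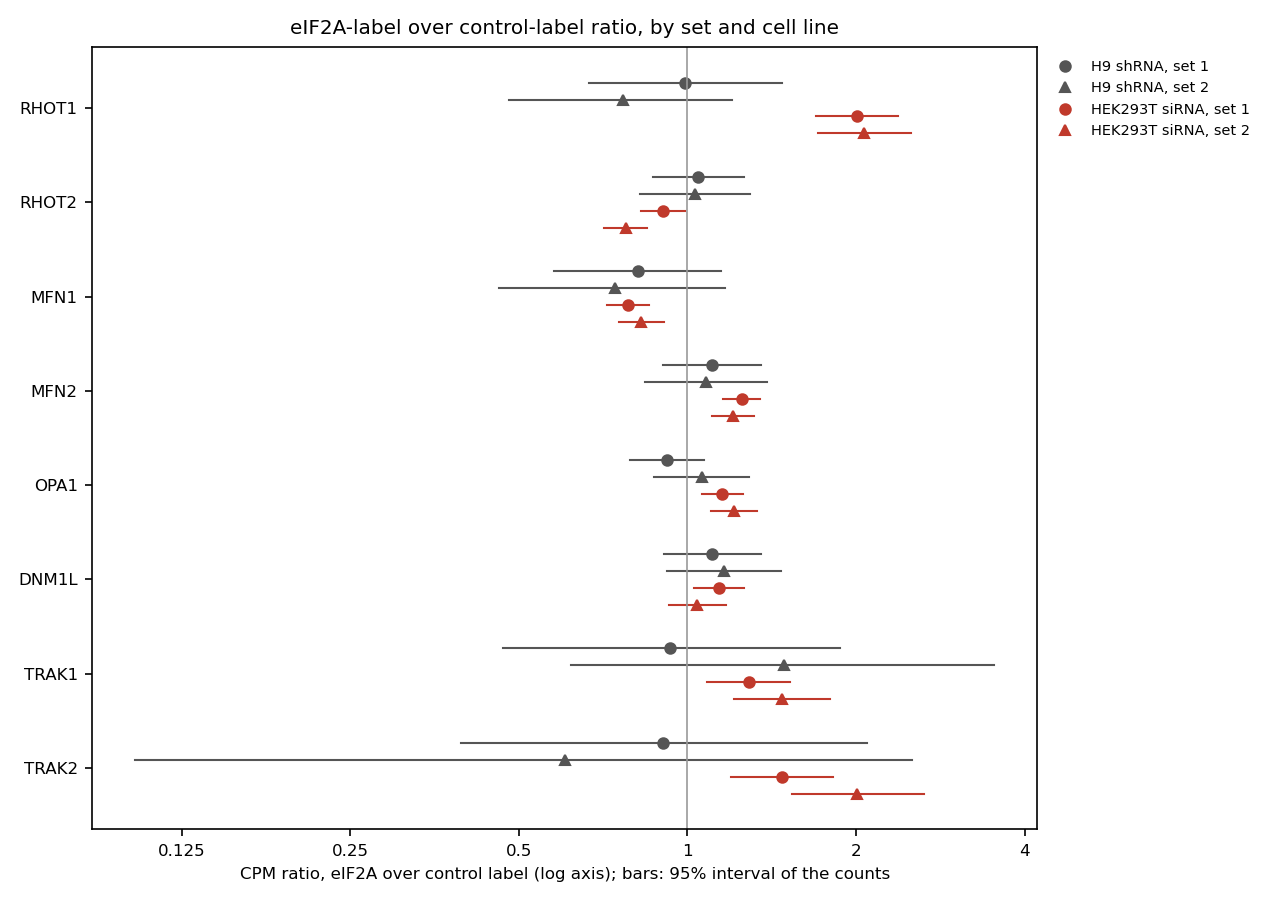
Ratio of CPM with the eIF2A label over CPM with the control label (horizontal, log axis), for each gene, set and cell line, with the CBP80- and eIF4E-labelled libraries of HEK293T summed and bars for the exact 95% interval of the counts. The HEK293T ratios of RHOT1 are 2.01 and 2.07, and those of H9, 0.991 and 0.767, lie to their left with wider bars.

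In H9, none of the 8 passed for the shRNA label, and none of 9751 genes did (0%), with 84 at an unadjusted p under 0.05 in edgeR and 0 called by DESeq2. The 84 are a smaller share than the 0.05 that chance alone would give. The spread in this fit is that between sets, where chi-square over degrees of freedom was 2.75 and 3.13, so the test is a strict one. The 16 ratios of single sets ran between 0.604 and 1.49, and the 95% interval held 1 in each. For OPA1, with 194 and 188 CPM in the libraries labelled eIF2A shRNA, against 211 and 177 CPM in those labelled control, the ratio over both sets was 0.988 (0.878 to 1.11). For DNM1L, with 127 and 135 CPM against 115 and 116 CPM in those labelled control, it was 1.12 (0.969 to 1.30), and both libraries labelled eIF2A shRNA were the higher ones. Since EIF2A was not lower in either H9 set with its own label, and the deposited names may give another assignment, these values compare libraries by label.

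The cap-binding label made no difference that the test called for any of these genes. Averaged over the siRNA labels, none of the 8 and none of 11778 genes passed for CBP80 minus eIF4E (0%), with 99 genes at an unadjusted p under 0.05 in edgeR and 1 called by DESeq2. The 99 are a smaller share than the 0.05 that chance alone would give. The spread in this fit is that between sets, which was far wider than that between immunoprecipitation labels. The test is thus a strict one, here and for the interaction below. The fitted log2 differences of the 8 ran between -0.06 for OPA1 and 0.25 for TRAK2 (each with an edgeR adjusted p of 0.99997). TRAK1 at 0.20 ± 0.13 and DNM1L at 0.16 ± 0.11 had, like TRAK2 at 0.25 ± 0.18, the higher mean with the CBP80 label. With siRNA and set taken into the fit as a block, TRAK1 stood at 0.20 ± 0.09, DNM1L at 0.16 ± 0.06 and TRAK2 at 0.25 ± 0.11. None of the 8 passed there either (edgeR adjusted p of 0.9977 or more), while 6 genes in all were called. RHOT1 stood at -0.03 ± 0.12, and its CBP80 over eIF4E ratios differed between siRNA labels, at 0.844 and 0.831 in sets 1 and 2 labelled eIF2A siRNA, against 0.966 and 1.47 in those labelled control siRNA. The test of whether the siRNA difference depends on the immunoprecipitation label gave -0.46 ± 0.25 for RHOT1 (edgeR adjusted p = 0.99994), and again none of the 8 or of 11778 genes passed (0%), with 96 at an unadjusted p under 0.05 and 0 called by DESeq2. Without the low eIF4E control library of set 2 the RHOT1 interaction was -0.23, and over each library left out in turn it lay between -0.79 and -0.23.

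The levels of most of these genes differed between the cell lines. OPA1, DNM1L and RHOT1 were higher in H9, and MFN1, TRAK1 and TRAK2 were higher in HEK293T. Control-labelled libraries of H9 were compared with those of HEK293T in 1 fit over all 12 libraries, where 71.9% of 12909 genes passed, 4584 higher in H9 and 4703 lower, and 6 of the 8 passed. Cell line, arsenite, immunoprecipitation and kind of RNA interference all differ between these groups and cannot be told apart. Like the fit of the 8 HEK293T libraries, this fit counts libraries that differ only in the immunoprecipitation label as separate. They agreed close to sampling noise, so its p-values may be too small. Scaling by library sizes alone raised the median of all genes by 0.14 in log2 over the TMM scaling used here. OPA1 had 211 and 177 CPM in H9 control libraries, against 76.8 to 101 CPM in the 4 HEK293T control libraries, a rise of 0.99 ± 0.13 in log2 (edgeR adjusted p = 1.94e-07). DNM1L had 115 and 116 CPM in H9 control libraries, against 52.9 to 70.0 CPM in HEK293T, and rose by 0.79 ± 0.14 (edgeR adjusted p = 2.72e-05). RHOT1 had 31.7 and 41.7 CPM in H9, against 13.2 to 19.9 CPM in HEK293T, and rose by 0.89 ± 0.19 (edgeR adjusted p = 0.000232). For these 3 genes every H9 control library was above every HEK293T control library. The share of all genes without overlap between these groups was not counted, so nothing is read from this.

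MFN1 and both adaptors went the other way. MFN1 had 45.7 and 41.7 CPM in H9 control libraries, against 90.0 to 116 CPM in HEK293T, and fell by 1.40 ± 0.16 in log2 (edgeR adjusted p = 1.43e-08), the largest difference of the 8. TRAK1 had 11.4 and 8.60 CPM in H9, against 15.2 to 26.0 CPM in HEK293T, and fell by 1.14 ± 0.26 (edgeR adjusted p = 0.000436). TRAK2 had 8.24 and 5.29 CPM in H9, against 7.16 to 15.7 CPM in HEK293T, with overlap, and its fall of 0.87 ± 0.37 passed narrowly (edgeR adjusted p = 0.0388). That call was lost in 7 of 19 alternatives, among them leaving out either H9 control library or the set 1 HEK293T control library of either immunoprecipitation label, with values between -1.23 and -0.62.

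The remaining paralogues differed less between the lines. RHOT2 had 132 and 134 CPM in H9 control libraries, against 97.8 to 109 CPM in HEK293T. These did not overlap, and for how many of all genes that was so was not counted. The RHOT2 log2 difference of 0.24 ± 0.12 did not pass (edgeR adjusted p = 0.0750). It passed in 3 of 19 alternatives, with 0.38 for library sizes alone, where all genes were shifted up. MFN2 had 112 and 107 CPM in H9, against 90.7 to 115 CPM in HEK293T, with overlap and a log2 difference of -0.06 ± 0.14 (edgeR adjusted p = 0.694). The MFN1 share of the mitofusin pair was accordingly 28.1 and 28.9% in H9 control libraries, against 47.8 to 53.3% in HEK293T control libraries. Summed over the 8 genes, the level was 631 to 670 CPM in H9 and 472 to 598 CPM in HEK293T, with no overlap.

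**Figure D4:**
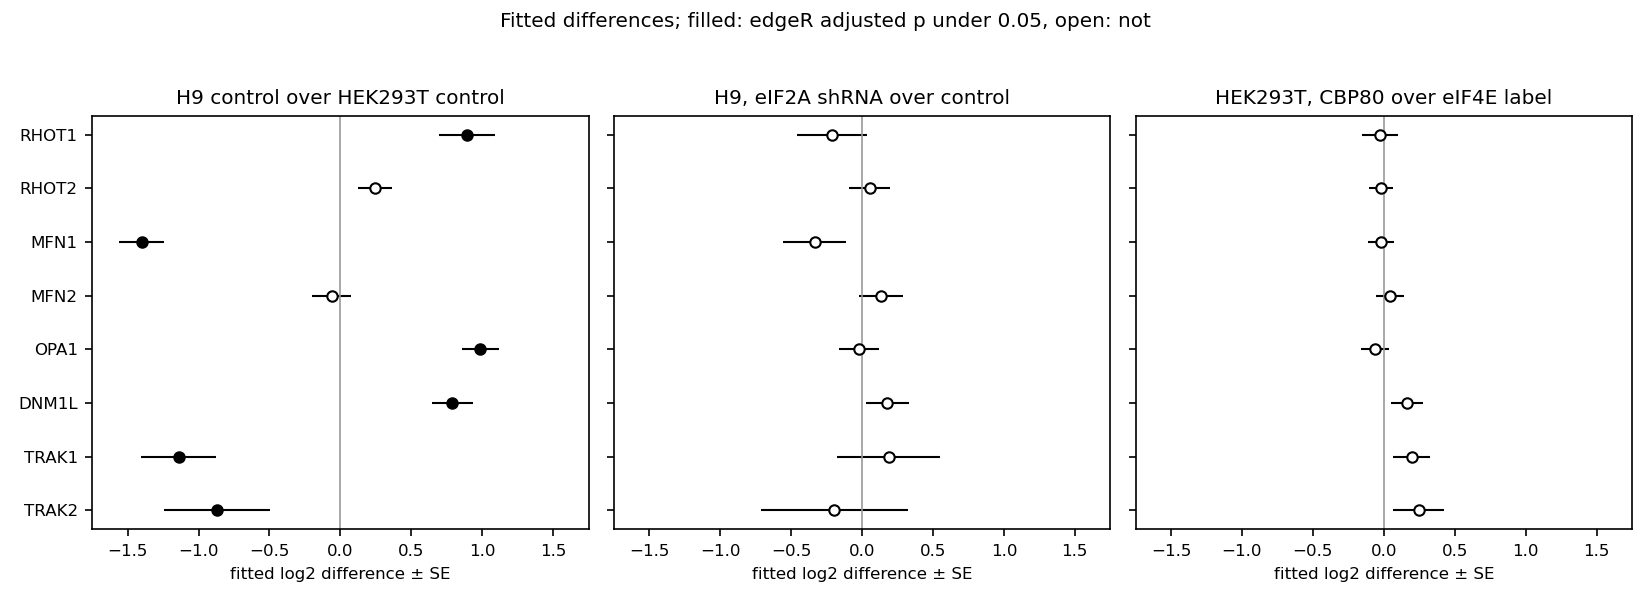
Fitted log2 differences with standard errors (horizontal axis) of the 8 genes for H9 control over HEK293T control, for eIF2A over control shRNA in H9, and for the CBP80 over the eIF4E label in HEK293T, filled where edgeR's adjusted p is under 0.05. In the first panel RHOT1, OPA1 and DNM1L lie right of 0 and MFN1, TRAK1 and TRAK2 left of it, and no point is filled in the other panels.

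Genes were ranked by how closely their log2 CPM over the 12 libraries, centred on their own mean, followed that of RHOT1. Among 6995 genes with a mean of at least 20 CPM, the nearest was NBN, a DNA break repair protein, at a root mean square difference of 0.208, beside a median of 0.657 over all genes compared. RERE, a transcriptional corepressor, followed at 0.209, TAB2, an adaptor of the kinase TAK1, at 0.210, CD2AP, an actin-linked scaffold, at 0.211, and KIF5B, the ubiquitous kinesin heavy chain that moves mitochondria, at 0.212. KIF5B had 108 to 158 CPM in the 4 HEK293T libraries labelled eIF2A siRNA, against 61.9 to 95.1 CPM in the 4 labelled control siRNA. These groups did not overlap, as was so for 30.7% of all genes tested. KIF5B was picked here by likeness to RHOT1 over the same libraries, so its separation by label comes with that choice and is no support. Its log2 differences of 0.59 with the CBP80 label (edgeR adjusted p = 0.0795) and 0.69 with the eIF4E label (edgeR adjusted p = 0.0579) did not pass. Of the other genes of the set, MFN2 ranked 548, OPA1 1149, DNM1L 1534, RHOT2 2401 and MFN1 5616 in likeness to RHOT1, and TRAK1 and TRAK2 were below the minimum mean. The libraries share sets and depth, so the ranks are a description.

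Around these genes, 92 others in 6 lists were followed: transport, fission, fusion and OPA1 processing, mitophagy, contacts with the endoplasmic reticulum, and other dynamin family GTPases. In HEK293T 88 could be tested. With the CBP80 label 5 of them passed for the siRNA label (5.68%, beside the 4.02% of all genes), and with the eIF4E label 3 did (3.41%, beside 3.25%), both near the background. The fit counts libraries that differ only in the immunoprecipitation label as separate, so its p-values may be too small. The calls lay in mitophagy, in fusion and OPA1 processing and in the contact list. PINK1, the kinase that marks damaged mitochondria, had 31.7 to 40.2 CPM in the 4 libraries labelled eIF2A siRNA, against 19.9 to 23.0 CPM in the 4 labelled control siRNA. It rose by 0.55 with the CBP80 label (edgeR adjusted p = 0.0464) and 0.83 with the eIF4E label (edgeR adjusted p = 0.0123). TAX1BP1, a mitophagy receptor, had 136 to 152 CPM with the eIF2A siRNA label, against 87.1 to 101 CPM with the control label, and rose by 0.58 (edgeR adjusted p = 0.0165) and 0.46 (0.0398) with the CBP80 and eIF4E label. Neither gene's groups overlapped.

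STOML2, a cristae protein that binds prohibitins, had 112 to 121 CPM in the libraries labelled eIF2A siRNA, against 148 to 159.5 CPM in those labelled control siRNA. It fell by 0.49 with the CBP80 label (edgeR adjusted p = 0.0304) and by 0.46 with the eIF4E label (edgeR adjusted p = 0.0405). NIPSNAP1, a matrix protein shown on damaged mitochondria, had 57.4 to 67.5 CPM with the eIF2A siRNA label, against 74.1 to 87.0 CPM with the control label, and fell by 0.52 with the CBP80 label (edgeR adjusted p = 0.0470). PDZD8, a tether between the endoplasmic reticulum and other organelles, had 67.9 to 99.0 CPM with the eIF2A siRNA label, against 43.2 to 59.4 CPM with the control label, and rose by 0.70 with the CBP80 label (edgeR adjusted p = 0.0423). With the immunoprecipitation labels summed all 5 passed, with edgeR adjusted p-values of 0.00128 for PINK1, 0.00553 for TAX1BP1, 0.0116 for STOML2, 0.0205 for NIPSNAP1 and 0.00112 for PDZD8. These 5 were picked by passing in the unsummed fit of the same libraries, so this is no further support. The summed fit called 1534 of 12331 genes, and how many of the listed genes it called is not given here. Leaving out a library could end them: 0 of the 5 CBP80 calls held without the CBP80 libraries of eIF2A set 1 (edgeR adjusted p = 0.129 to 0.348) or control set 2 (0.218 to 0.338). Of the 3 eIF4E calls 0 held without the eIF4E libraries of control set 1 (edgeR adjusted p = 0.0589 to 0.104), eIF2A set 1 (0.0826 to 0.261) or control set 2 (0.194 to 0.338).

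None of the 22 transport genes tested passed with either label. Their median log2 difference was -0.06 with the CBP80 label and -0.10 with the eIF4E label, beside 0.00 over all genes. DYNC1H1, the dynein heavy chain, stood at -0.24 and -0.22 (edgeR adjusted p = 0.337 and 0.403), and DCTN1, the large dynactin subunit, at -0.36 and -0.32 (edgeR adjusted p = 0.0774 and 0.112), with the CBP80 and eIF4E label. None of 16 fission genes passed either, with DNM2 at 0.13 and 0.06 and MIEF1, a DNM1L receptor, at -0.01 and -0.03 (edgeR adjusted p of 0.505 or more in each). In the dynamin family 0 of 5 passed, with ATL2, an endoplasmic reticulum fusion GTPase, at 0.28 and 0.35 (edgeR adjusted p = 0.214 and 0.133) and DNM1, a dynamin of endocytosis, at -0.07 and 0.26 (edgeR adjusted p = 0.800 and 0.272). With the eIF4E label none of the 14 contact genes passed, with BCAP31 at -0.17 and HSPA9 at -0.20 (edgeR adjusted p = 0.529 and 0.296). In H9, 0 of 80 passed for the shRNA label, and 0 of 88 passed in HEK293T for the immunoprecipitation label or its interaction with the siRNA label.

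**Figure D5:**
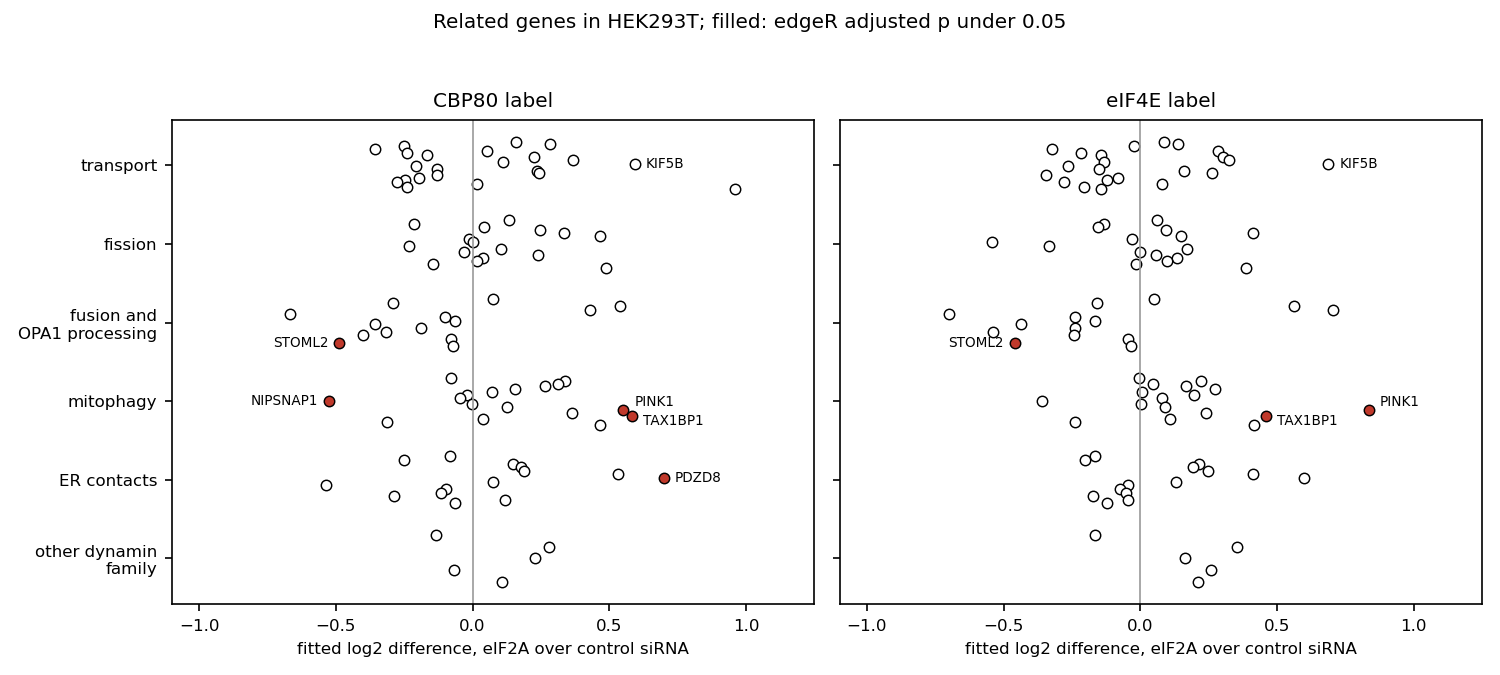
Fitted log2 difference of eIF2A over control siRNA label (horizontal axis) of the 88 tested genes of the 6 lists, 1 circle a gene, with the CBP80 label on the left and the eIF4E label on the right, filled where edgeR's adjusted p is under 0.05. With the CBP80 label 5 genes are filled and with the eIF4E label 3, and KIF5B is named among the open circles.

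Between the lines, 68 of 90 listed genes passed (75.6%, beside the 71.9% of all genes), 34 higher and 34 lower in H9. Fusion and OPA1 processing held 3 that rose and 9 that fell of 14, transport 12 and 7 of 23, fission 6 and 6 of 16, mitophagy 7 and 5 of 17, contacts 4 and 5 of 14, and the dynamin family 2 and 2 of 6. Among the partners of DNM1L, its receptor MFF rose by 1.09 ± 0.22 in log2 (edgeR adjusted p = 8.76e-05) while MIEF1 fell by 2.11 ± 0.19 (edgeR adjusted p = 3.78e-10). OMA1, the stress protease that cuts OPA1, fell by 2.54 ± 0.19 (edgeR adjusted p = 4.52e-12) in H9, where OPA1 itself rose. Among motor genes, KIF5C rose by 1.40 ± 0.15 (edgeR adjusted p = 8.62e-09) and DYNC1H1 fell by 0.99 ± 0.17 (edgeR adjusted p = 1.16e-05).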

How the data were processed

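Per the labels' protocols, RNA was taken up in TRIzol and libraries were built with a small RNA kit. The build hg19, cutadapt and STAR 2.5.2b are named in the submitters' processing notes. The sources used here do not give the counter, the strand setting or the annotation release, so reads of overlapping genes on opposite strands are not separated. Each deposited file holds raw counts per RefSeq coding sequence, which the authors left without normalization. Rows naming no gene held 87.5 to 89.5% of the total in HEK293T and 96.2 to 96.5% in H9, and stayed out of library sizes and tests. RefSeq's gene table named 18888 of 19305 accessions, and 417 stayed unnamed.

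CPM is the count over all coding reads. Without coding lengths, levels were not compared between genes. edgeR 4.0.16 in R 4.3.3 with limma 3.58.1 (filterByExpr, TMM, robust quasi-likelihood, Benjamini-Hochberg over all genes tested, threshold 0.05) fitted 8 HEK293T libraries in 4 groups (11778 genes), 4 H9 libraries (9751) and all 12 (12909). DESeq2 1.42.0 was an alternative. The fits were tested on simulated counts. Intervals of ratios and shares cover counting error only. The 8 genes and the lists were chosen with earlier results of these data known. Genes named from the lists are examples of those past the threshold with at least 5 CPM on average, at most 4 each way per list, or else of the 2 of highest mean. KIF5B is named as 1 of the 5 nearest to RHOT1.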

Additional observations from a re-analysis of the deposited data

Results flagged for a closer look

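Among the 4 HEK293T libraries labelled control siRNA, the RHOT1 level of the eIF4E-labelled library of set 2, 13.2 CPM, lay far from the other 3 (gap over range 0.899). Of 16 such sets of 4 libraries it was the only one set apart, and chance sets apart about 1 in 20.

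The log2 ratio of eIF2A over control label took opposite signs in H9 and HEK293T for 3 genes of the set. Every set of H9 lay on one side of 0 and every HEK293T pair on the other. H9 minus HEK293T was -1.24 for RHOT1, 0.31 for RHOT2 and -1.23 for TRAK2. These differences were not tested, and the 95% interval of each H9 ratio of a single set held 1. The HEK293T side of RHOT1 was used to choose the set, so its gap to H9 is no support. Some H9 ratios were close to 1, with RHOT1 at 0.991 in set 1 and RHOT2 at 1.05 and 1.03 in sets 1 and 2. For TRAK2 the H9 ratio of set 2, 0.604 (0.103 to 2.52), came from 3 reads with the eIF2A label and 8 with the control label, and the ratio over both sets was 0.888 (0.440 to 1.77). Leaving out 1 H9 library moved the fitted TRAK2 difference between -1.05 and 0.14, so its sign turned. EIF2A was higher with its own siRNA label in both set 1 pairs and lower in both set 2 pairs, with a difference of -1.05 in log2 (set 2 minus set 1) that was not tested.

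Uniquely placed reads outside coding sequences made up at least 42.2% in each HEK293T library labelled eIF2A siRNA, above the highest library labelled control siRNA, 40.1%.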

How the results depend on the processing

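No direction of a called result turned under any alternative run. RHOT1 under the siRNA label with the CBP80 label was 0.79 with library sizes alone and 0.93 with the immunoprecipitation labels summed. Counts of genes called moved more. With the CBP80 label, beside 473, they were 287 with library sizes alone, 994 with no count filter, 863 with that immunoprecipitation label's libraries alone, 1534 with the labels summed and 2942 with the set number as a replicate block. With the eIF4E label, beside 383, they were 186, 869, 1086, 1534 and 2776 in the same order. Library sizes alone also turned the balance, with 154 of 287 genes higher with the CBP80 label, beside 182 of 473, and 95 of 186 with the eIF4E label, beside 147 of 383. Of the related-list calls they kept 1 of 5 with the CBP80 label and 2 of 3 with the eIF4E label. Of the 8 genes, beside 1, 5 were called with the block under either label, where 2942 and 2776 genes were called in all. With the labels summed 3 of the 8 were called, among 1534 of 12331 genes. With the eIF4E label 2 of the 8 were called with no count filter, among 869 genes. With its libraries alone 3 of the 8 were called, among 1086 genes. RHOT1 was used in this contrast to choose the set, so nothing is read from these counts. The set numbers' deviations correlated at 0.40 and 0.37 in HEK293T and 0.43 in H9, but with 2 sets they were not taken as pairs. For CBP80 minus eIF4E, beside 0, 3 genes were called with no count filter, 2 with the set block, 1 with DESeq2 and 6 with siRNA and set as a block. H9 minus HEK293T control called 6182 genes at a mean count of at least 50, beside 9287.

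Leaving out each library in turn gave 3 to 818 genes and 0 to 1 of the 8 with the CBP80 label, RHOT1 at 0.65 to 0.77, and 0 to 747 genes and 0 to 1 of the 8 with the eIF4E label, RHOT1 at 0.93 to 1.50. The counts fell to 323, 8 and 3 without the CBP80 libraries of control set 1, eIF2A set 1 and control set 2, and to 31, 26 and 0 without the eIF4E libraries of the same labels. For CBP80 minus eIF4E it gave 0 to 2 genes and RHOT1 at -0.14 to 0.14, for the interaction RHOT1 at -0.79 to -0.23, for H9 shRNA RHOT1 at -0.41 to 0.01, and between lines 8065 to 9375 genes, 5 to 6 of the 8, and RHOT1 at 0.66 to 1.08. A lone library left in a group was taken to vary like the others. Depth limits TRAK2 in H9 most, at 3 to 14 reads.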
